A study of Rattus norvegicus with 4 samples.

Results

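The deubiquitinases and ubiquitin ligases of the rat hippocampus were followed on 4 whole-genome Affymetrix GeneChip arrays. The members were the probe sets whose annotation gave a single gene symbol starting with Usp, Otud, Trim, Fbxo, Fbxw, Fbxl, Rnf or Cul and then a digit, together with those for Nedd4, Nedd4l, Ube3a, Stub1, Uchl1 and Itch. This rule found 346 of the 31042 probe sets on the array (Affymetrix controls left out), for 219 of 14217 genes with a probe set of their own, and none was annotated to Itch alone. Of these, 225 probe sets of 173 genes reached a signal of 100 on at least 2 arrays and entered the comparison, alongside 14566 probe sets that were no members. The remaining 121 member probe sets stayed dim, with a highest signal over the 4 arrays between 2.7 and 121.9 (median 39.5), and 8 of them reached 100 on 1 array. Just inside the limit lay Trim34 (1385252_at), at 105.2 and 116.1 in stressed rats and 102.9 and 103.7 in nonstressed controls, and Rnf227 (1393565_at), at 85.7 and 81.8 in stressed rats and 103.7 and 143.5 in nonstressed controls. Just outside lay Trim26 (1378293_at), at 85.7 and 106.4 in stressed rats and 93.4 and 99.9 in nonstressed controls, and Fbxo30 (1382059_at), at 90.8 and 98.9 in stressed rats and 101.1 and 78.4 in nonstressed controls, and each of these genes was tested at another probe set.

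The stressed group consisted of aged male Wistar rats that went through 4 weeks of chronic unpredictable mild stress, a battery of changing mild stressors, starting at 15 months of age, with hippocampi taken at 16 months. The nonstressed controls were male Wistar rats of the same age kept under standard housing with free food and water. Total hippocampal RNA of 3 rats was pooled for each array, and each group had 2 arrays. The sources do not state whether a rat contributed to more than 1 pool of its group, so the p-values measure only the spread between pools, which may be technical. The study asked which hippocampal genes change in this stress model, which it used to study signs of neurodegeneration. In a bulk tissue of this kind, fewer cells of a type and less RNA per cell cannot be told apart.

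Ubiquitin is a small protein that is attached to other proteins by a chain of enzymes: an E1 enzyme activates it, an E2 enzyme carries it, and an E3 ligase chooses the substrate. RING-type ligases (most Rnf and Trim proteins) bring the E2 to the substrate, HECT-type ligases (Nedd4, Nedd4l, Ube3a) take the ubiquitin over themselves, and cullin-RING ligases are built on a cullin scaffold with an exchangeable substrate receptor such as an F-box protein (Fbxo, Fbxw, Fbxl). Deubiquitinases (most Usp and Otud proteins, and Uchl1) remove ubiquitin again. Members were taken by symbol, so a Usp member need not be an active deubiquitinase. In neurons this system marks proteins for the proteasome and adjusts receptors, scaffolds and signalling proteins at the synapse.

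The arrays were alike in scale, with a median signal between 79.6 and 82.3, between 46.45% and 46.76% of probe sets at a signal of 100 or more, and a trimmed mean of 300.1 on each. Log2 signals correlated at r = 0.993 and 0.9935 within groups and between 0.9722 and 0.974 across groups, over probe sets of the same arrays. The 3′ to 5′ ratio of the Gapdh control probe sets was 2.123 and 2.164 in stressed rats and 2.138 and 2.245 in nonstressed controls, and that of beta-actin was 7.819 and 7.66 in stressed rats and 6.668 and 6.201 in nonstressed controls. The Gapdh ratios overlapped between groups, while the beta-actin ratio was higher on both stressed arrays. The beta-actin signal at the 3′ probe set was 5520 and 5389 in stressed rats, against 7837 and 8286 in nonstressed controls. At the middle probe set it was 1632 and 1576 against 3121 and 3285, and at the 5′ probe set 706 and 703.6 against 1175 and 1336. Markers of hippocampal neurons were present, with 18 of 20 listed genes tested (3 rose and 4 fell). Among 24 listed choroid plexus markers 17 were tested, 11 rose and 0 fell, with a median log2 fold change of 0.41 and a summed signal of 24391.3 and 23302.0 in stressed rats and 17902.2 and 19645.0 in nonstressed controls. Of 11 endothelial and mural markers tested 5 rose and 0 fell, and of 11 interneuron markers 0 rose and 4 fell. Of 12 astrocyte markers 3 rose and 1 fell, of 11 oligodendrocyte markers 1 rose and 4 fell, and of 9 microglia markers 1 rose and 2 fell. No marker of these lists had a signal of 0. These shifts run along with every comparison below, and their part in the results was not tested.

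Members of the ubiquitin system differed between stressed and nonstressed rats in both directions, in shares near those of the whole array. Among the called members the falls had a larger median size than the rises. Over all probe sets the median log2 fold change was -0.44 for those that fell and 0.36 for those that rose. At an adjusted p under 0.05 in limma (2 arrays per group), 30 of the 225 member probe sets rose and 26 fell, while 169 passed in neither direction. Over all 14791 tested probe sets 12.0% rose and 11.8% fell, and the median log2 fold change (stressed minus nonstressed) was 0.01 over the members and 0.02 over all, so the members as a whole lay at the background. The rises were small, with a median log2 fold change of 0.32 and a range from 0.20 to 0.88, whereas the falls had a median of -0.66 and reached -2.30. By at least 1.5-fold, 16 of the 26 falls were called (61.5%, beside 34.6% of all probe sets that fell), and 3 of the 30 rises (10%, beside 13.4% of all that rose). At the thresholds named in the study's methods, a 2-fold difference with an unadjusted p under 0.05, 6 members were lower and 0 higher, beside 1.38% and 0.216% of all tested probe sets. The 6 (2.67% of the members) were Rnf6, Usp29, Fbxw7 (1386794_at), Fbxo9 (1395694_at), Nedd4 (1395157_at) and Usp1 (1373538_at). At the probe set of highest mean signal of each gene, 2 of the 173 member genes were lower at these thresholds, Rnf6 and Usp29. That was 1.16%, beside 0.69% of all genes. Of the 26 falls 3 (Rnf6, Fbxo10 and Nedd4 at 1395157_at) reached a signal of 100 on the control arrays only, so they entered the comparison through the group where they were high. All 30 rises reached it in both groups. These 3 falls are all among the 16 of at least 1.5-fold, and the -2.30 is that of Rnf6. Fbxw7, Fbxw2 and Nedd4 also count there at more than 1 probe set. The share of large falls was not computed without these. The groups did not overlap for 146 of the 225 members, against 64.4% of all tested probe sets.

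Counted by gene, at the probe set with the highest mean signal, 24 of the 173 member genes rose and 18 fell, where 11.1% of all 9264 genes rose and 10.2% fell. The counts that follow are again of member probe sets, of which 30 rose and 26 fell with all arrays. Without control replicate 2 the count of rises was 8, without control replicate 1 it was 13, and without stressed replicate 1 or 2 it was 19 or 18. The falls numbered 18, 19, 24 and 24 in the same order. Over all tested probe sets the rises numbered 650, 817, 1148 and 1135 in that order (1771 with all arrays) and the falls 791, 910, 1342 and 1313 (1744 with all arrays). Of the 30 rises 6 passed in every removal of an array and 9 in none, and of the 26 falls 16 passed in every removal and 4 in none. An exact permutation test of 2 against 2 arrays cannot give a two-sided p under 0.333, so calls here rest on the spread that limma pools over all probe sets.

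**Figure D1:**
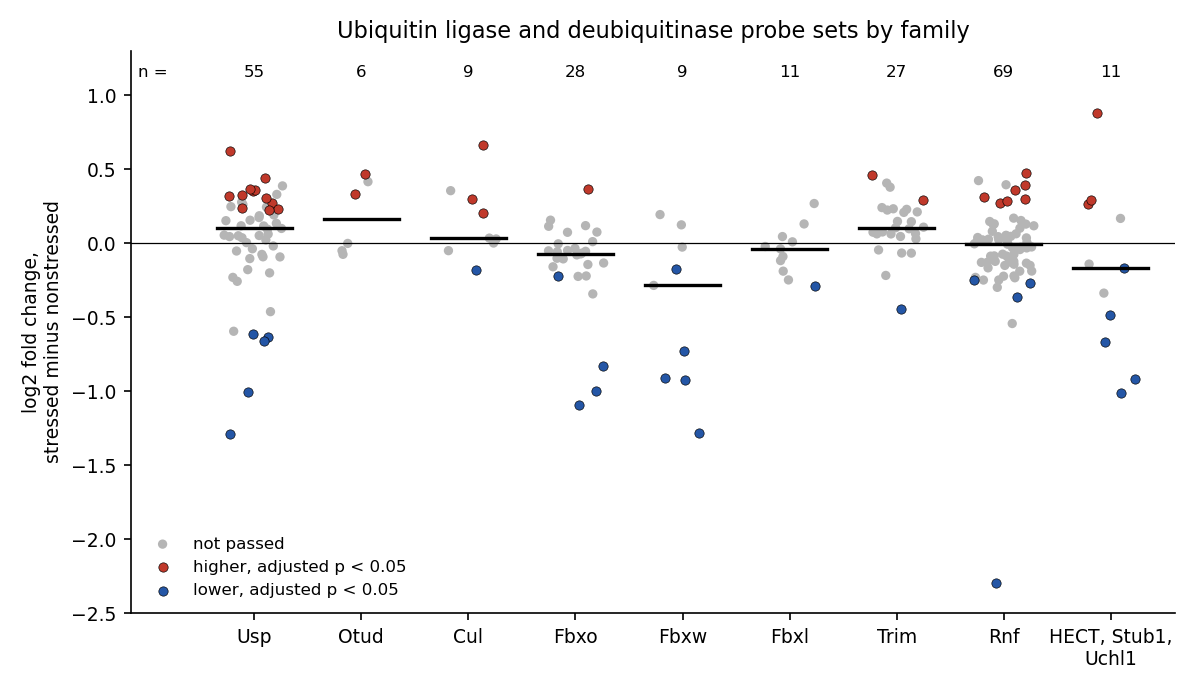
Log2 fold change (stressed minus nonstressed, vertical axis) of each tested member probe set by family, with red for probe sets that rose, blue for those that fell and grey for those that did not pass; black bars are family medians and n is the number of probe sets. The Fbxw column holds 5 falls and 0 rises with a median of -0.29, while the Usp column holds 12 rises of modest size and 5 falls reaching -1.29.

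The families are described by their counts, which stand beside the 12.0% of all tested probe sets that rose and the 11.8% that fell. The 9 Fbxw probe sets had 0 rises and 5 falls with a median log2 fold change of -0.29, and the 28 Fbxo probe sets had 1 rise and 4 falls with a median of -0.07. The 11 Fbxl probe sets had 0 rises, 1 fall and a median of -0.04. The 55 Usp probe sets had 12 rises, 5 falls and a median of 0.10, and the 6 Otud probe sets had 2 rises, 0 falls and a median of 0.17. Among the 27 Trim probe sets 2 rose and 1 fell (median 0.10), among the 69 Rnf probe sets 7 rose and 4 fell (median -0.01), and among the 9 Cul probe sets 3 rose and 1 fell (median 0.03). The 11 probe sets of Nedd4, Nedd4l, Ube3a, Stub1 and Uchl1 had 3 rises and 5 falls (median -0.17). Taking the F-box families as a unit, 1 of 48 probe sets rose and 10 fell, and taking Usp, Otud and Uchl1 as a unit, 14 of 62 rose and 5 fell. Some genes count more than once here. By gene, at the probe set with the highest mean signal, 0 of 7 Fbxw genes rose and 3 fell (median -0.18). Of 38 Usp genes 10 rose and 2 fell (median 0.12), and of 5 Otud genes 2 rose and 0 fell (median -0.002). Over all genes 11.1% rose and 10.2% fell. No difference between families was tested.

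F-box proteins are the substrate receptors of SCF ligases. They made up 48 of the 225 member probe sets and 7 of the 16 member falls of at least 1.5-fold. The 7 were both tested probe sets of Fbxw7 and of Fbxw2, and 1 each of Fbxo9, Fbxo15 and Fbxo10, the last at 100 on the control arrays only. Fbxw7 and Fbxw2 count 2 probe sets each here, and the F-box share of the large falls was not tested. Over the whole array 34.6% of falls reached 1.5-fold, which is no yardstick for that share. Fbxw7, the receptor that hands cyclin E, Myc and Notch to the proteasome, was lower at both of its tested probe sets. At 1386794_at its signal was 170.0 and 179.0 in stressed rats, against 433.0 and 415.5 in nonstressed controls, a log2 fold change of -1.28 (SE 0.09, limma adjusted p = 0.000126). At 1379332_at the signal was 445.4 and 505.5 in stressed rats, against 876.6 and 929.1 in nonstressed controls, a log2 fold change of -0.93 (SE 0.08, adjusted p = 0.000241). The stressed arrays lay below the control arrays with no overlap at either probe set, and both falls passed in every removal of an array.

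Fbxw2, another WD40-repeat F-box protein, showed the same direction at both of its tested probe sets. The signal at 1392469_at was 629.2 and 640.9 in stressed rats, against 1047.6 and 1056.5 in nonstressed controls (log2 fold change -0.73, SE 0.05, adjusted p = 0.000144). For 1393407_at it was 302.9 and 262.3 in stressed rats, against 503.3 and 560.6 in nonstressed controls (log2 fold change -0.91, SE 0.10, adjusted p = 0.000825). The groups were again apart at both, and both calls held in every removal. Fbxw5, named after its values were seen, gave 898.2 and 929.4 in stressed rats and 1040.7 and 1024.4 in nonstressed controls (log2 fold change -0.18, adjusted p = 0.044), and this small fall was lost in each removal, with adjusted p up to 0.164. The other 4 Fbxw probe sets did not pass. The count of Fbxw falls was 4 in each removal and with quantile normalization, and 5 with median centring.

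Among the Fbxo genes, Fbxo9 had 1 probe set past 2-fold. At 1395694_at the signal was 452.3 and 465.1 in stressed rats, against 969.5 and 985.3 in nonstressed controls, with no overlap and a log2 fold change of -1.09 (SE 0.06, limma adjusted p = 3.27e-05). Its other probe set, 1388470_at, gave 1190.0 and 1103.3 in stressed rats and 1257.9 and 1419.2 in nonstressed controls, a log2 fold change of -0.22 that did not pass (adjusted p = 0.0557). Fbxo15, best known as a gene of mouse embryonic stem cells, fell to 231.2 and 295.4 in stressed rats, against 515.2 and 528.0 in nonstressed controls (log2 fold change -0.997, SE 0.12, adjusted p = 0.00124). Both stressed pools lay below both control pools although the stressed pools differed from each other. Fbxo10, a receptor for the survival protein Bcl2 in human cells, had 79.4 and 87.8 in stressed rats and 156.3 and 141.6 in nonstressed controls (log2 fold change -0.83, SE 0.15, adjusted p = 0.00669), a fall lost without control replicate 1 (0.0602). Its stressed signals were under the limit of 100. Fbxo33 (1381903_at, named after its values were seen) fell slightly (log2 fold change -0.22, adjusted p = 0.0322), a call lost in each removal, with adjusted p up to 0.127.

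The F-box gene that rose was Fbxo45, a brain-enriched receptor that works with the RING ligase Mycbp2 in neuronal development and at synapses. Its signal was 677.2 and 677.6 in stressed rats, against 517.8 and 531.8 in nonstressed controls, a log2 fold change of 0.37 (SE 0.06, limma adjusted p = 0.00493), with both stressed arrays above both control arrays and the call kept in every removal. Of the leucine-rich-repeat F-box genes, Fbxl4, a mitochondrial protein, had 309.0 and 284.2 in stressed rats and 361.6 and 362.0 in nonstressed controls (log2 fold change -0.29, adjusted p = 0.0459), a fall lost in each removal (adjusted p 0.0554 to 0.173). Fbxl14 (log2 fold change -0.25, adjusted p = 0.134), Fbxl20 (1376794_at, 0.27, adjusted p = 0.153) and Fbxl5 (0.13, adjusted p = 0.235), the receptor for the iron regulator Ireb2, did not pass.

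**Figure D2:**
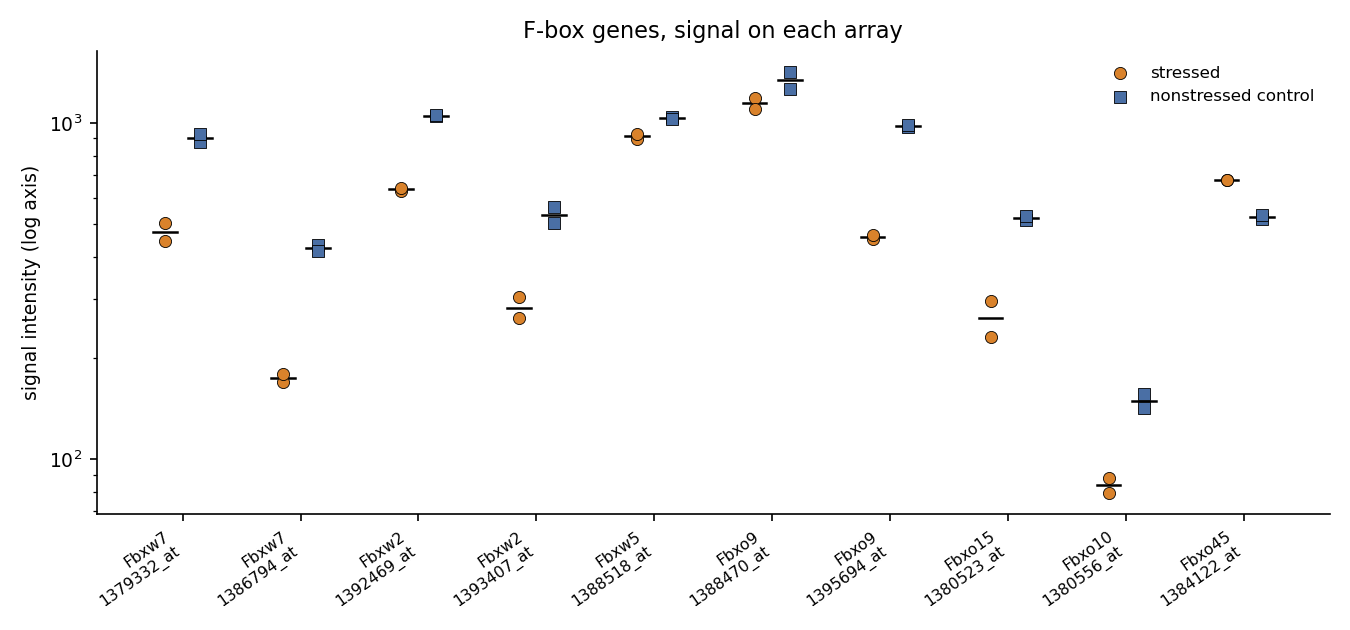
Signal intensity (vertical log axis) on each array for the tested probe sets of Fbxw7, Fbxw2, Fbxw5, Fbxo9, Fbxo15, Fbxo10 and Fbxo45; orange circles are stressed pools, blue squares nonstressed control pools, and black bars group means of the 2 arrays. Both tested Fbxw7 and both tested Fbxw2 probe sets lie lower on the stressed arrays, Fbxo9 differs clearly at 1395694_at but little at 1388470_at, and Fbxo45 lies higher on the stressed arrays.

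Among the cullins, the scaffolds that carry these receptors, 3 of 9 probe sets rose and 1 fell. Cul4a, which carries Ddb1 and its partners, gave 414.4 and 571.1 in stressed rats, against 321.3 and 292.7 in nonstressed controls (log2 fold change 0.67, SE 0.14, limma adjusted p = 0.014), with no overlap but a wide gap between the stressed pools. Its call was lost without control replicate 1 (adjusted p = 0.0606), without control replicate 2 (0.104) and with no intensity trend (0.0631). The paralogue Cul4b had 499.5 and 496.8 in stressed rats and 393.8 and 418.1 in nonstressed controls (log2 fold change 0.30, adjusted p = 0.0222), lost in each removal (0.0624 to 0.108). Cul5, scaffold of the SOCS-box ligases, rose slightly (log2 fold change 0.20, adjusted p = 0.0368) and Cul3 (1399132_at), scaffold of the BTB ligases, fell slightly (log2 fold change -0.18, adjusted p = 0.0359), and both calls were lost in 3 of the 4 removals, kept only without stressed replicate 2. Cul1, the scaffold of the F-box proteins themselves, had 1979.5 and 1802.4 in stressed rats and 1961.8 and 1951.1 in nonstressed controls, overlapping, with a log2 fold change of -0.05 that did not pass (adjusted p = 0.543; chosen after its values were seen). The count of Cul rises was 0 without either control array.

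The HECT ligase Nedd4, which ubiquitinates membrane receptors and channels, gave opposite changes at different probe sets. At 1375119_at it fell to 2886.5 and 2824.0 in stressed rats, against 5298.6 and 5497.7 in nonstressed controls (log2 fold change -0.92, SE 0.04, limma adjusted p = 2.44e-05). It also fell at 1395157_at, with 81.1 and 85.3 in stressed rats and 172.6 and 162.9 in nonstressed controls (log2 fold change -1.01, SE 0.14, adjusted p = 0.00225), where the stressed signals were under 100 and only the control arrays brought the probe set into the comparison. In contrast, 1383899_at rose to 370.1 and 350.5 in stressed rats, against 200.6 and 191.3 in nonstressed controls (log2 fold change 0.88, SE 0.09, adjusted p = 0.000766), the largest rise among the tested members. These 3 probe sets had no overlap between groups, and all 3 calls held in every removal. A further probe set, 1371314_at, gave 3721.2 and 3649.5 in stressed rats and 3081.2 and 3041.4 in nonstressed controls (log2 fold change 0.27, SE 0.04, adjusted p = 0.00435), a rise lost with no intensity trend. The last one tested, 1386263_at, overlapped between groups at 218.7 and 270.9 in stressed rats and 242.0 and 194.2 in nonstressed controls (log2 fold change 0.17, adjusted p = 0.45). Which transcript form or strand each probe set reads is not given in the sources used here, so no single direction can be stated for Nedd4.

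Ube3a, the HECT ligase lost in Angelman syndrome and expressed from the maternal copy in neurons, was lower at each of its tested probe sets by value, and 2 of the 3 passed. The signal at 1382741_at was 883.0 and 892.3 in stressed rats, against 1404.2 and 1410.9 in nonstressed controls, a log2 fold change of -0.67 (SE 0.05, limma adjusted p = 0.000139). At 1391393_at it was 990.2 and 990.7 in stressed rats, against 1386.2 and 1387.8 in nonstressed controls, a log2 fold change of -0.49 (SE 0.05, adjusted p = 0.00052). The pools of a group were nearly equal and the groups far apart at both, and both falls held in every removal. The third probe set, 1383909_at, gave 139.8 and 121.6 in stressed rats and 164.0 and 165.5 in nonstressed controls (log2 fold change -0.34, adjusted p = 0.101), which did not pass. Nedd4l, a relative of Nedd4 that controls sodium channels, had 384.5 and 420.9 in stressed rats and 343.1 and 313.4 in nonstressed controls (log2 fold change 0.29, adjusted p = 0.0482), lost in each removal (0.0551 to 0.214).

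Stub1, the U-box ligase that ubiquitinates clients of the Hsp70 and Hsp90 chaperones, including tau, gave 2032.8 and 1928.8 in stressed rats and 2182.6 and 2258.2 in nonstressed controls. The log2 fold change of -0.17 (limma adjusted p = 0.0444) was lost in each removal (0.0582 to 0.203). Uchl1, an abundant neuronal deubiquitinase, gave 4381.1 and 4307.2 in stressed rats and 4640.9 and 4946.0 in nonstressed controls, and its log2 fold change of -0.14 did not pass (adjusted p = 0.0682).

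**Figure D3:**
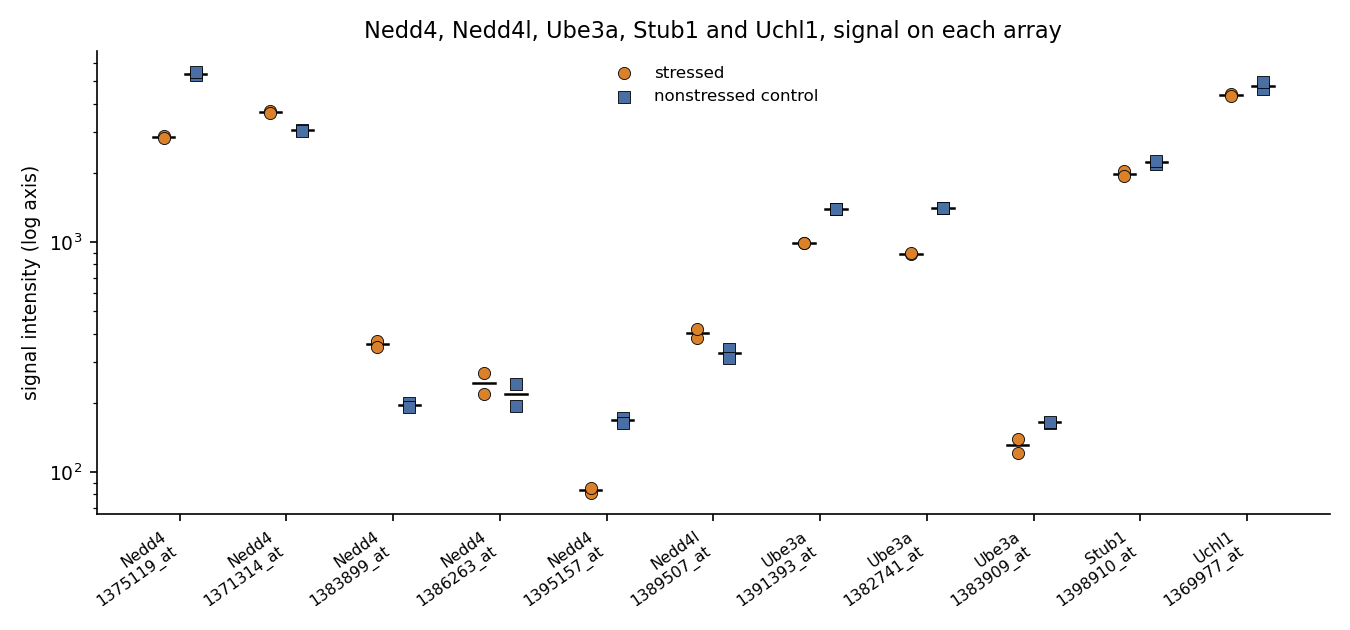
Signal intensity (vertical log axis) on each array for every tested probe set of Nedd4, Nedd4l, Ube3a, Stub1 and Uchl1; orange circles are stressed pools, blue squares nonstressed control pools, and black bars group means of the 2 arrays. The Nedd4 probe sets go in opposite directions (lower at 1375119_at and 1395157_at, higher at 1371314_at and 1383899_at), and 2 of the 3 Ube3a probe sets fell.

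Fbxw2, Fbxw7 and Ube3a were the member genes with at least 2 probe sets that fell and none that rose, so their promoters are shown (RefSeq, build GRCr8, 250 bases before to 50 bases after the annotated start: Fbxw2 chr3:38511634-38511933 on the minus strand, Fbxw7 chr2:172447488-172447787 on the plus strand and Ube3a chr1:119205898-119206197 on the plus strand). Usp9x, with 3 probe sets that rose and none that fell, would have been shown too, but no promoter was available for it. Capitals mark GC boxes, the letters GGGCGG read on either strand.
Fbxw2: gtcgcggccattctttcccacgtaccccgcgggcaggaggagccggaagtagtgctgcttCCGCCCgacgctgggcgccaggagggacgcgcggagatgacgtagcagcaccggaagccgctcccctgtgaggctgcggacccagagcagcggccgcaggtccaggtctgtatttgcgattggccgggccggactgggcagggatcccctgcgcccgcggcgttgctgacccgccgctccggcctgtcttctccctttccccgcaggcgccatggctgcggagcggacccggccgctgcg
Fbxw7: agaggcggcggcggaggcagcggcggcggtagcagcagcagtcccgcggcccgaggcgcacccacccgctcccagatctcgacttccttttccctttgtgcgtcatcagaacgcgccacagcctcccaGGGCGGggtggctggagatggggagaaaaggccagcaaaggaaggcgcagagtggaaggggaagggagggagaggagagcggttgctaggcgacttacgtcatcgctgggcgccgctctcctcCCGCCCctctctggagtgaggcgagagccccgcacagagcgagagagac
Ube3a: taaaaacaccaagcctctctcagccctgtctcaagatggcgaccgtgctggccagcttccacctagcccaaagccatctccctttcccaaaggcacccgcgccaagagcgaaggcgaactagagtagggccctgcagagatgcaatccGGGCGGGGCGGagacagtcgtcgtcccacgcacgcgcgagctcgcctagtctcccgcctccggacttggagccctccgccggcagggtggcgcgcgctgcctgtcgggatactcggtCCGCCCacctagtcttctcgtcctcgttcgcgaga
The GC content was 72.0% for Fbxw2, 67.7% for Fbxw7 and 65.0% for Ube3a, where the median over 144 tested member genes with a promoter in the table was 63.2% and over all 27370 promoters 52.3%. Fbxw2 held 1 GC box, Fbxw7 held 2 and Ube3a held 3, of which 2 overlapped, and a GC box was present in 97 of the 144 members (67.4%) and in 35% of all promoters. It was held by 10 of the 15 genes with a fall, no rise and a tabulated promoter (66.7%), out of 19 such falling genes in all, and by 14 of the 19 with a rise, no fall and a tabulated promoter (73.7%), out of 24 such rising genes. The glucocorticoid response element with its arms GNACA and TGTNC set 3 bases apart, searched like the other motifs on both strands because corticosterone is the main stress hormone of the rat, matched 0 of the 144 member promoters and 0.424% of all. The cAMP response element TGACGTCA matched 5 of the 144 (3.47%, beside 1.91% of all) and the E-box CACGTG matched 9 (6.25%, beside 6.67% of all), and neither lay in the 3 promoters shown. No match says only that these letters are not in this window.

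The RING ligase with the largest change among the members was Rnf6, which in human cells acts on the androgen receptor. Its signal was 49.6 and 45.6 in stressed rats, against 245.1 and 222.8 in nonstressed controls, a log2 fold change of -2.30 (SE 0.15, limma adjusted p = 8.29e-05). Both stressed arrays lay far below both control arrays and under the signal limit of 100, so the size of this fold rests on dim signals. The call held in every removal. Rnf6 had this single tested probe set.

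Rnf216, which ubiquitinates the synaptic protein Arc, rose to 682.1 and 669.3 in stressed rats, against 517.0 and 511.3 in nonstressed controls (log2 fold change 0.39, SE 0.06, limma adjusted p = 0.00381). Rnf182 (1393547_at), a ligase found mainly in brain, rose to 2041.6 and 2039.9 in stressed rats, against 1691.1 and 1630.3 in nonstressed controls (log2 fold change 0.30, SE 0.05, adjusted p = 0.00381). Neither overlapped between groups, and both calls held in every removal. Rnf10 gave 1605.1 and 1569.6 in stressed rats and 1983.0 and 1850.4 in nonstressed controls (log2 fold change -0.27, SE 0.05, adjusted p = 0.00892), a fall lost without control replicate 1 (0.0633) and with no intensity trend (0.0638). Rnf14, a bright member and a ligase of the RING-between-RING type, gave 7643.8 and 7246.9 in stressed rats and 7273.9 and 7689.0 in nonstressed controls, overlapping, with a log2 fold change of -0.01 that did not pass (adjusted p = 0.933). Named after their values were seen, the other Rnf rises were Rnf112, Rnf157, Rnf168, Rnf4 and Rnf44 and the other falls Rnf145 and Rnf25, each lost in 1 or more removals. The count of Rnf rises was 6 without stressed replicate 1 and 4 in each other removal, and that of falls was 1 without control replicate 1 and 2 without control replicate 2.

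Of the Trim genes, Trim2, a neuronal ligase that binds the neurofilament light chain, gave different results at its 3 probe sets. At 1375278_at it fell to 4834.5 and 4507.7 in stressed rats, against 6386.0 and 6310.8 in nonstressed controls (log2 fold change -0.44, SE 0.05, limma adjusted p = 0.00093), with no overlap and the call kept in every removal. At 1373578_at it gave 5071.1 and 4739.0 in stressed rats and 4505.4 and 4803.5 in nonstressed controls, overlapping (log2 fold change 0.08, adjusted p = 0.345). At 1397596_at it gave 441.7 and 494.2 in stressed rats and 401.0 and 364.0 in nonstressed controls, a log2 fold change of 0.29 that sat at the threshold (adjusted p = 0.05, just under it before rounding) and was kept in only 1 removal. Trim39 gave 139.8 and 151.1 in stressed rats and 103.6 and 108.1 in nonstressed controls (log2 fold change 0.46, adjusted p = 0.0444), a rise lost in each removal (0.0892 to 0.174). Trim28, the corepressor of KRAB zinc finger proteins, had a log2 fold change of 0.15 that did not pass (adjusted p = 0.0645).

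Among the deubiquitinases, 12 of the 55 Usp probe sets rose, mostly by little, and 5 fell, mostly by more. Over all tested probe sets 12.0% rose and 11.8% fell. Of the Usp rises only that of Usp54 held in every removal, and 3 were probe sets of Usp9x. Usp29, an imprinted gene of the Peg3 region in mouse, fell to 139.5 and 135.1 in stressed rats, against 335.0 and 335.4 in nonstressed controls (log2 fold change -1.29, SE 0.10, limma adjusted p = 0.000187). Usp1, which acts on Fancd2 and Pcna in DNA repair, fell at 1373538_at to 129.9 and 121.7 in stressed rats, against 260.6 and 244.9 in nonstressed controls (log2 fold change -1.01, SE 0.11, adjusted p = 0.00106). The groups were well apart at both, and both calls held in every removal. The other Usp1 probe set, 1376687_at, overlapped, at 398.3 and 424.8 in stressed rats and 418.5 and 392.2 in nonstressed controls (log2 fold change 0.02, adjusted p = 0.863).

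Usp7, the deubiquitinase of Mdm2, and Usp46, which in mice affects GABA signalling and in worms glutamate receptors, each fell at 1 of 3 tested probe sets. Usp7 at 1398351_at gave 1327.9 and 1269.7 in stressed rats, against 1943.3 and 2037.0 in nonstressed controls (log2 fold change -0.62, SE 0.05, limma adjusted p = 0.000233). Its probe set 1393042_at gave 960.2 and 897.6 in stressed rats and 953.8 and 927.8 in nonstressed controls (log2 fold change -0.02, adjusted p = 0.836), and 1394393_at did not pass either (log2 fold change -0.20, adjusted p = 0.131). Usp46 at 1375194_at gave 370.5 and 369.9 in stressed rats, against 573.5 and 574.4 in nonstressed controls (log2 fold change -0.63, SE 0.07, adjusted p = 0.000766), while 1393115_at (-0.10, adjusted p = 0.346) and 1383771_at (-0.46, adjusted p = 0.107) did not pass. The calls at 1398351_at and 1375194_at held in every removal.

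The largest rise of this family was at Usp54, with 714.3 and 686.4 in stressed rats, against 437.7 and 474.5 in nonstressed controls (log2 fold change 0.62, SE 0.07, limma adjusted p = 0.00099), which held in every removal. Usp9x, a large deubiquitinase needed for neuronal development, was the member gene with all of several tested probe sets risen (named after its values were seen). At 1372121_at it gave 1518.2 and 1462.8 in stressed rats, against 1262.9 and 1211.6 in nonstressed controls. Its signal at 1389316_at was 882.9 and 909.3 in stressed rats, against 784.6 and 753.1 in nonstressed controls, and that at 1374447_at was 480.7 and 485.8 in stressed rats, against 379.4 and 370.1 in nonstressed controls. None of these tested probe sets overlapped between groups, and the log2 fold changes in this order were 0.27 (adjusted p = 0.00845), 0.22 (0.0257) and 0.37 (0.00936). Without control replicate 2, 0 of the 3 passed (adjusted p up to 0.132). Usp32, a membrane-anchored protease, rose at 1373962_at to 717.7 and 738.4 in stressed rats, against 589.1 and 548.0 in nonstressed controls (log2 fold change 0.36, SE 0.06, adjusted p = 0.00726). At 1390486_at it fell to 122.1 and 120.1 in stressed rats, against 186.1 and 196.7 in nonstressed controls (log2 fold change -0.66, SE 0.12, adjusted p = 0.00766). Both Usp32 calls were lost without control replicate 2 (0.0565 and 0.0657).

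The other Usp rises, Usp13, Usp19, Usp24, Usp37, Usp40, Usp47 and Usp48 (named after their values were seen), had log2 fold changes between 0.23 (Usp13) and 0.44 (Usp40), and each was lost in at least 3 of the 4 removals. Leaving out stressed replicate 1 or 2 left 6 or 7 Usp rises, leaving out control replicate 1 or 2 left 5 or 1, and dropping the intensity trend left 3, while that of Usp falls lay between 4 and 7 in the removals. In the OTU family, Otud4 rose to 604.6 and 618.6 in stressed rats, against 487.0 and 484.4 in nonstressed controls (log2 fold change 0.33, SE 0.06, limma adjusted p = 0.00868, and 0.0549 without control replicate 2). Otud7b, an antagonist of NF-kappa B signalling, gave 205.0 and 190.2 in stressed rats and 149.6 and 136.6 in nonstressed controls at 1374348_at (log2 fold change 0.47, adjusted p = 0.0286, lost in each removal), and 212.2 and 171.3 in stressed rats and 146.3 and 139.7 in nonstressed controls at 1378973_at (log2 fold change 0.42, adjusted p = 0.0665). Otud1 had a log2 fold change of -0.08 that did not pass (adjusted p = 0.47).

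**Figure D4:**
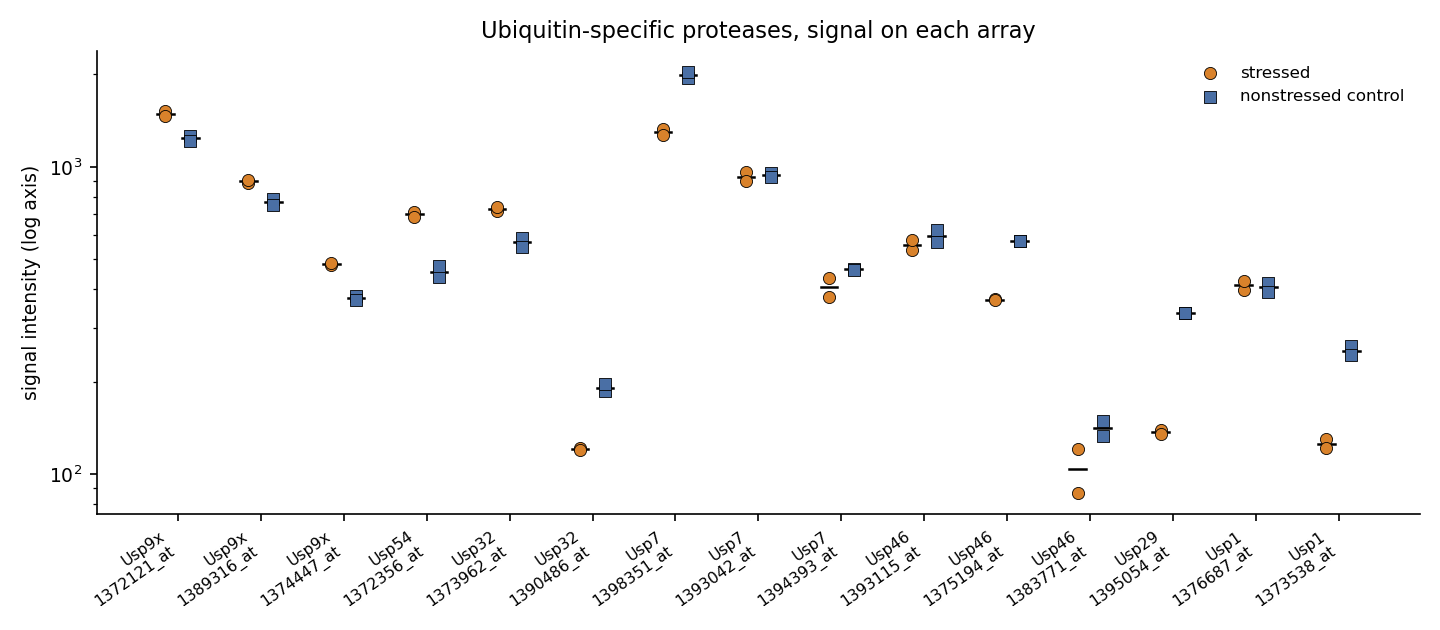
Signal intensity (vertical log axis) on each array for all tested probe sets of Usp9x, Usp54, Usp32, Usp7, Usp46, Usp29 and Usp1; orange circles are stressed pools, blue squares nonstressed control pools, and black bars group means of the 2 arrays. The 3 Usp9x probe sets lie higher on the stressed arrays, and Usp7, Usp46 and Usp1 each have 1 probe set that fell beside others that did not pass. Of those others, Usp46 at 1383771_at and Usp7 at 1394393_at also lie lower on the stressed arrays without overlap.

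Because several genes behaved differently from probe set to probe set, the difference itself was tested. Of the member genes 40 had several tested probe sets (92 in all), giving 52 pairs with the probe set of highest mean signal. The 2 changes differed in 13 of the 52 pairs, from 9 genes, at an adjusted p under 0.05 in limma, beside 26.6% of the 2363 such pairs on the array. A probe set that rose and another that fell were found in 3 of the 40 genes (Nedd4, Trim2 and Usp32), beside 5.13% of the 1871 genes with several tested probe sets. In 19 of the 40 genes no probe set passed and in 14 only 1 did, in 3 (Fbxw2, Fbxw7 and Usp9x) all passed in the same direction, and in Ube3a several but not all passed in the same direction.

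The largest difference was in Nedd4, where the log2 fold change at 1383899_at exceeded that at 1375119_at by 1.80 (SE 0.12, limma adjusted p = 6.4e-05). The changes at 1371314_at and 1386263_at exceeded that at 1375119_at by 1.19 (SE 0.05, adjusted p = 1.15e-05) and 1.09 (SE 0.17, adjusted p = 0.00283). For 1395157_at the difference from 1375119_at was -0.09 and did not pass (adjusted p = 0.71). In Trim2 the changes at 1373578_at and 1397596_at exceeded that at 1375278_at by 0.52 (adjusted p = 0.00042) and 0.73 (adjusted p = 0.003). In Fbxo9 the difference between 1395694_at and 1388470_at was -0.87 (SE 0.10, adjusted p = 0.000526). In Usp7 the changes at 1393042_at and 1394393_at exceeded that at 1398351_at by 0.60 (adjusted p = 0.00108) and 0.41 (adjusted p = 0.0191). The differences were -1.03 in Usp1 (adjusted p = 0.00132), -1.02 in Usp32 (adjusted p = 0.00175) and -0.53 in Usp46 (adjusted p = 0.00662). Trim41 (-0.46, adjusted p = 0.0344) and Rnf181 (0.51, adjusted p = 0.04) were the others, and in these no single probe set passed. The probe sets of these genes may read different transcript ends or forms, which was not tested. The 3′ to 5′ ratio of the beta-actin control probe sets was also higher on both stressed arrays. That difference runs with the groups, and its part in the changes within a gene was not tested.

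**Figure D5:**
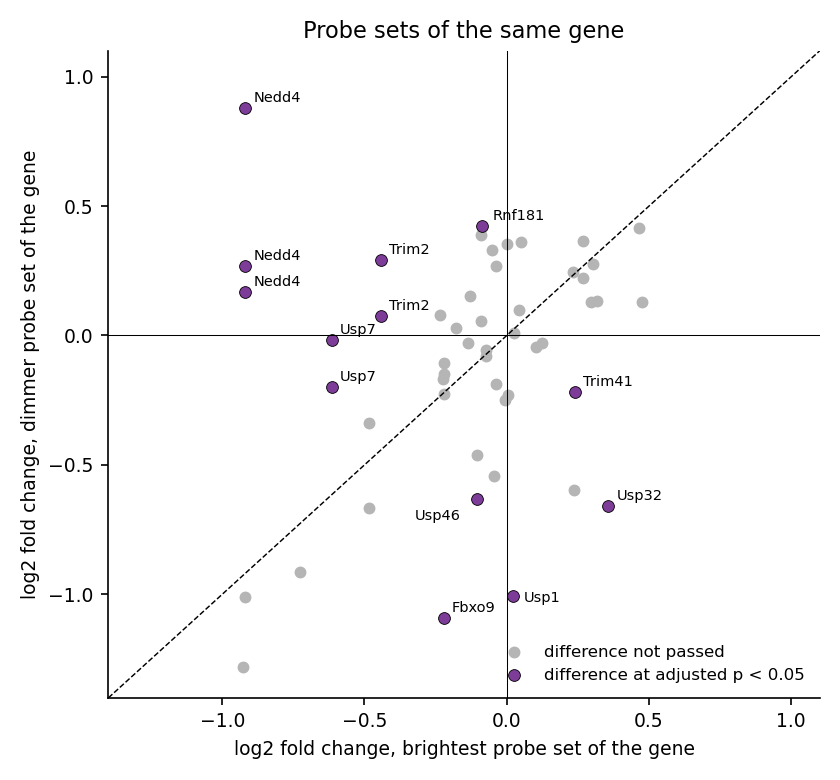
Log2 fold change (stressed minus nonstressed) of each further tested probe set of a member gene (vertical axis) against that of the gene's probe set with the highest mean signal (horizontal axis), 52 pairs in 40 genes; purple points are the 13 pairs whose changes differed at an adjusted p under 0.05, and the dashed line marks equal change. The purple Nedd4 and Trim2 points lie above the line at the left, and the Usp1, Usp32 and Fbxo9 points below it. The grey Nedd4 point, for 1395157_at, lies close to the line.

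The rest of the pathway was followed in lists of genes that are no members (counts at the probe set of highest mean signal, beside 11.1% of all genes risen and 10.2% fallen). Of 7 E1 activating enzymes tested 3 rose and 0 fell (median log2 fold change 0.09). Uba1, the main E1 for ubiquitin, had 2308.4 and 2177.6 in stressed rats and 1894.8 and 1920.1 in nonstressed controls (log2 fold change 0.23, limma adjusted p = 0.0124), and Sae1, part of the E1 for SUMO, also rose (log2 fold change 0.30, adjusted p = 0.0121), both lost in 3 of the 4 removals. Of 24 E2 enzymes 1 rose and 3 fell (median -0.05). Ube2n, an E2 for non-degradative ubiquitin chains, fell to 1504.7 and 1665.1 in stressed rats, against 2031.4 and 2169.2 in nonstressed controls (log2 fold change -0.41, SE 0.06, adjusted p = 0.00378), which held in every removal, and Ube2g1 fell as well (log2 fold change -0.26, adjusted p = 0.00829, and 0.0626 without control replicate 2). Among 6 genes for ubiquitin and its relatives 0 rose and 1 fell (median 0.00), namely Sumo2 (log2 fold change -0.28, adjusted p = 0.0062, and 0.0541 without control replicate 2), while Urm1 gave 0.56 and did not pass (adjusted p = 0.0622).

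Of 38 cullin partners and regulators 5 rose and 8 fell (median -0.04). Rbx1, the RING subunit shared by most cullin ligases, fell to 1333.4 and 1277.8 in stressed rats, against 1685.8 and 1727.7 in nonstressed controls (log2 fold change -0.39, SE 0.05, limma adjusted p = 0.00163). Dcaf6, a substrate receptor of the Cul4 ligases, fell to 419.6 and 423.3 in stressed rats, against 696.3 and 742.4 in nonstressed controls (log2 fold change -0.77, SE 0.07, adjusted p = 0.000278). Both were apart between groups and held in every removal. Skp1, the adaptor between Cul1 and the F-box proteins (named after its values were seen), had 3699.0 and 3700.1 in stressed rats and 4112.9 and 4096.1 in nonstressed controls (log2 fold change -0.15, adjusted p = 0.0356), lost in each removal (up to 0.136).

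Of 20 further HECT and U-box ligases 3 rose and 1 fell (median 0.16). The fall was Ube4b, a U-box ligase that lengthens ubiquitin chains, at 943.3 and 1028.9 in stressed rats, against 1828.9 and 1758.6 in nonstressed controls (log2 fold change -0.86, SE 0.06, limma adjusted p = 9.55e-05), and Arel1, a HECT ligase, rose to 1228.4 and 1179.3 in stressed rats, against 970.8 and 942.8 in nonstressed controls (log2 fold change 0.33, SE 0.05, adjusted p = 0.00422). Of 51 further RING ligases 5 rose and 7 fell (median 0.00). Ubr4, a very large ligase of the N-degron pathway, rose to 603.9 and 593.7 in stressed rats, against 338.8 and 332.0 in nonstressed controls (log2 fold change 0.84, SE 0.07, adjusted p = 0.000235). Znrf1, a ligase of axon degeneration, fell to 784.6 and 801.1 in stressed rats, against 1161.3 and 1175.6 in nonstressed controls (log2 fold change -0.56, SE 0.05, adjusted p = 0.000357). These 4 genes had no overlap between groups and held in every removal.

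Of 27 deubiquitinases outside the Usp, Otud and Uchl1 set 1 rose and 5 fell (median -0.01). Vcpip1, which acts with the ATPase Vcp in Golgi reassembly, fell to 273.1 and 293.1 in stressed rats, against 512.5 and 471.6 in nonstressed controls (log2 fold change -0.80, SE 0.08, limma adjusted p = 0.000773), and held in every removal. Brcc3, a metalloprotease of the BRISC and BRCA1-A complexes, fell to 1008.7 and 1059.3 in stressed rats, against 1265.2 and 1375.0 in nonstressed controls (log2 fold change -0.35, SE 0.06, adjusted p = 0.0055, and 0.0507 without control replicate 2).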

How the data were processed

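The authors pooled total hippocampal RNA of 3 rats per array, hybridised biotin-labelled cRNA to Affymetrix rat arrays and processed the scans with GCOS to signal intensities scaled to a common target. The deposited values are these linear intensities, 1 per probe set, and no intervals from counts apply to arrays, whose number limits the precision. Affymetrix control probe sets were left out, the test took probe sets whose intensity reached 100 on 2 or more arrays, zeros were set to 0.1, and log2 intensities of 2 stressed and 2 nonstressed arrays were compared with limma 3.58.1 (R 4.3.3, eBayes with an intensity trend, 7.73 degrees of freedom, Benjamini-Hochberg adjustment over all 14791 probe sets, threshold 0.05), after the scripts were tested on simulated data. Changes within a gene were compared by fitting the log2 difference of 2 probe sets. Tables and figures used matplotlib 3.10.9 with numpy 2.4.6, pandas 2.3.3 and Python 3.11.15. Probe sets were named from the platform annotation, where 20826 had a single symbol, 436 several and 9780 none, and all 346 members matched RefSeq by gene identifier.

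Members and lists were chosen with earlier results of these data known. Named were the 4 probe sets with the smallest p per family, every tested probe set of Nedd4, Nedd4l, Ube3a, Stub1 and Uchl1, members past 2-fold, the 5 within-gene pairs with the smallest p and those in opposite directions, the 3 brightest members, and 2 genes per pathway list. Alternatives covered normalization, filters, an offset of 50, no intensity trend, the methods' t-test, a replicate block and removal of each array.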

Additional observations from a re-analysis of the deposited data

How the results depend on the processing

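With quantile normalization, median centring, an offset of 50, or a limit of 100 on the mean signal or of 200 on 2 arrays, each count of calls among the members stayed within 1.5 times its reported value. Rises numbered 14 with no filter and 12 with no intensity trend, against 30 reported, and falls 21 and 19, against 26. With the methods' t-test on log2 or linear signals, each probe set alone, 0 members rose after Benjamini-Hochberg adjustment (27 at an unadjusted p under 0.05 on either scale) and 2 fell, Usp46 (1375194_at) and Ube3a (1391393_at), while on log2 signals 0 of the within-gene pairs differed (13 at an unadjusted p under 0.05), against 13 in limma (20 unadjusted). Leaving out 1 array gave 8 to 19 rises and 18 to 24 falls, of which 8 to 17 and 17 to 21 were among those reported, and 5 to 8 members lower at 2-fold. No member was higher at 2-fold under any alternative run, where limma at an unadjusted p under 0.05 gave 48 members up.

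The deviations of arrays with the same replicate number correlated at r = -0.110 over probe sets. With 2 arrays per group this value cannot settle whether arrays with the same number were handled together. With the replicate block 19 members rose and 20 fell. A crossed pairing, chosen after seeing the data, gave 29 rises, 34 falls and 15 differing pairs.

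Of 36 named calls all kept their direction in every alternative and 22 passed in every removal. Values near 0 changed sign for Usp7 at 1393042_at (log2 fold change -0.0677 to 0.0296 over the removals, -0.02 reported) and Rnf14 (-0.0470 to 0.0331, -0.01 reported). The 2 arrays per group, dim signals under 100 and unknown probe positions limit what these data can show.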
